A study of Mus musculus with 4 samples.

Results

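The collagen genes were all rows of the count table whose mouse symbol has the form Col, a type number, the letter a and a chain number, and that held at least 1 count in any library. There were 44 of them among 24621 genes with any count and 51826 rows. RNA came from the quadriceps of sedentary male mice at about 20 weeks of age, kept on standard chow. There were 2 groups of 2 mice: wild-type (WT) mice, and Mef2dα2 Eko mice (written Eko), which carry a germline CRISPR-Cas9 deletion of the muscle-specific α2 exon of Mef2d. Both genotypes came from crosses of heterozygous mice on the C57BL6/J background, and the study's text calls the WT and Eko mice littermates, without saying which mice shared a litter. The comparison asks how the loss of this isoform of MEF2D, a transcription factor of muscle genes, is reflected in muscle RNA. Which of the study's founder lines gave these mice is not in the sample labels. Each mouse gave 1 library, so p-values measure the spread between mice of the same genotype with 2 mice in each.

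Collagens are triple helices of 3 α chains, each chain made by a gene of its own. In skeletal muscle, types I, III and V form the fibrils of the connective tissue sheaths and tendon, type IV is the network of the basement membrane around each muscle fiber and capillary, and type VI is a beaded filament that joins that basement membrane to the surrounding matrix. Most of these chains are made by fibroblasts and their relatives rather than by the muscle fiber. Whole muscle RNA gives a mixture, so fewer cells that make a chain and less RNA per cell cannot be told apart here.

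Total expected counts, the reads RSEM assigned to genes, were 72626757 to 85176059 per library. Levels are given in CPM, counts scaled to the library total after TMM normalization, and between genes in CPM per kb of transcript. Collagen genes took 0.05245% and 0.05444% of the counts in WT replicates 1 and 2, and 0.05202% and 0.04327% in Eko replicates 1 and 2. Reads over the whole Mef2d gene do not separate the α exons and so do not check the deletion. Mef2d itself was at 259.4 and 227.4 CPM in WT and 251.7 and 240.6 CPM in Eko mice. Of the 44 collagen genes, 40 had enough counts for edgeR's filter and were tested. The remaining 4 were Col6a4, Col9a2, Col9a3 and Col10a1, with at most 12 counts in any library.

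No collagen gene passed an adjusted p of 0.05 in edgeR's quasi-likelihood test, adjusted by the Benjamini-Hochberg method over the 16120 genes tested, of which 0.416% passed. At an unadjusted p under 0.05, 7 of the 40 were lower in the Eko mice, 17.5% against 6.41% of all genes tested, and 3 were higher, 7.5% against 5.15%. In 11 collagen genes, 27.5%, both Eko mice lay below both WT mice, against 23% of all genes, and in 8, 20%, both lay above, against 20.8%. The groups overlapped in the other 21. DESeq2 called 4 collagen genes at an adjusted p under 0.05, 10% against 1.97% of all genes, namely Col24a1, Col4a1, Col3a1 and Col6a3. limma-voom called 0. The median log2 fold change of the 40 genes was -0.0054, beside -0.0051 over all genes tested, and single genes ran from -0.55 for Col6a5 to 1.26 for Col24a1.

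**Figure D1:**
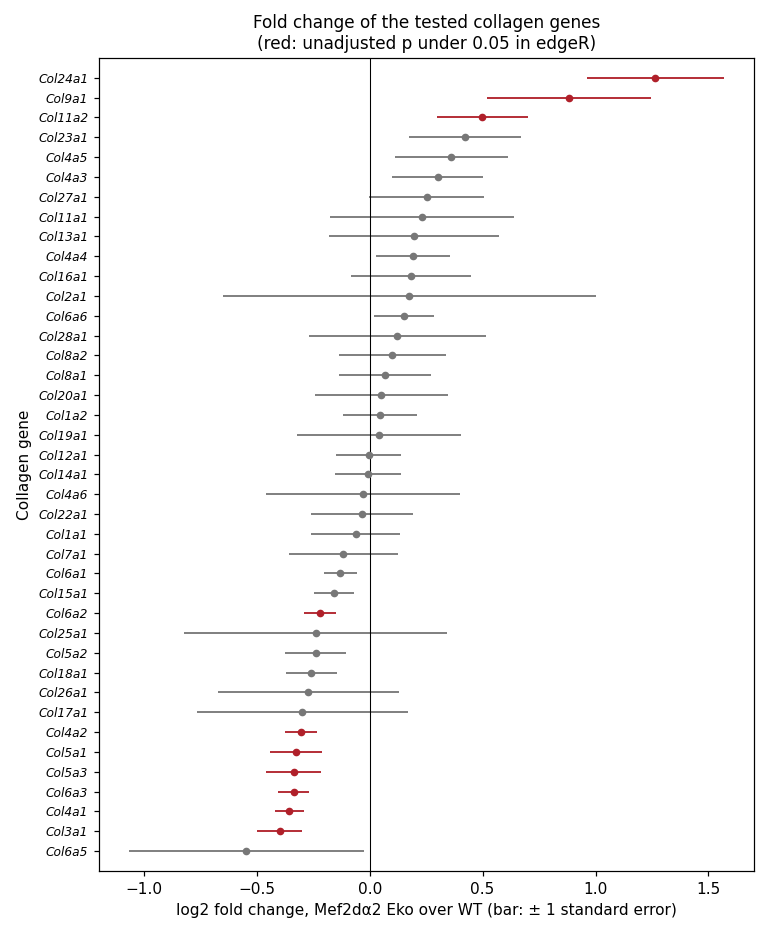
Log2 fold change of Eko over WT mice (x axis) for the 40 collagen genes tested (y axis), with bars of 1 standard error from edgeR, n = 2 mice per genotype. The 10 genes in red had an unadjusted p under 0.05, 7 to the left of 0 and 3 to the right, and none passed the adjusted threshold.

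The lower and the higher genes stood at different levels. Each of the 7 genes lower at an unadjusted p under 0.05 is a chain of type III, IV, V or VI, and these were among the 13 most abundant collagen genes of WT muscle per kb. The 3 higher ones, Col24a1, Col11a2 and Col9a1, ranked 22, 21 and 33 of 44. Per kb of transcript, the most abundant collagen RNA of WT muscle was Col1a2 at 13.7 CPM per kb, followed by Col3a1 at 12.9, Col1a1 at 10.3, Col4a1 at 9.10, Col4a2 at 8.69, Col6a1 at 7.79, Col6a2 at 6.56 and Col6a3 at 3.14. The first 3 were not in the same order in both WT mice, since Col3a1 led in replicate 1 at 14.1 CPM per kb and Col1a2 in replicate 2 at 15.7. As a share of the summed collagen CPM of WT mice, fibril-forming genes held 46.6%, type IV 23.0% and type VI 18.6%.

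**Figure D2:**
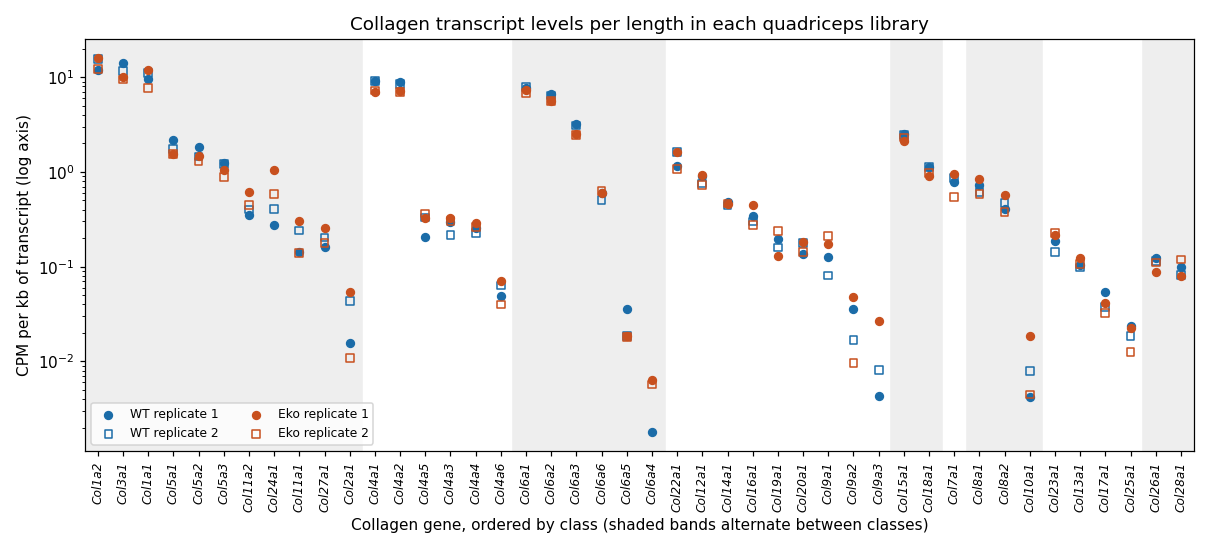
Level of each of the 44 collagen genes in each library, in CPM per kb of transcript on a log axis, ordered by class and then by WT level. Values of 0 are not drawn. Col1a2, Col3a1, Col1a1, Col4a1 and Col4a2 head the list in WT mice, at 8.69 to 13.7 CPM per kb.

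The gene pair that makes the main basement membrane collagen lies head to head on chromosome 8, Col4a1 on the minus strand and Col4a2 on the plus strand, and their annotated gene bodies overlap by 22 bases. Their promoter windows, taken as the 250 bases before and 50 after each RefSeq start, therefore share 78 bases. They are shown with the windows of Col3a1 and Col24a1, the genes with the most negative and the most positive fold change among the 10 with an unadjusted p under 0.05. The windows are RefSeq sequence of GRCm38.p6, 5′ to 3′ on the strand of the gene, and capitals mark a match on either strand to CCAAT (the CCAAT box), to the GC box GGGCGG or to the TATA box TATAAA.
Col4a1 chr8:11312777-11313076 (minus strand): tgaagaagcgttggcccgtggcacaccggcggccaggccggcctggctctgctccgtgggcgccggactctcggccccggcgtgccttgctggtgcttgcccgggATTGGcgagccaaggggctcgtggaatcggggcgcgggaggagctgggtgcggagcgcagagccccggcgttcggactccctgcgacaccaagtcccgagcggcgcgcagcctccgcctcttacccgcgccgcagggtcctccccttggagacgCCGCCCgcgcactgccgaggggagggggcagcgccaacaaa
Col4a2 chr8:11312555-11312854 (plus strand): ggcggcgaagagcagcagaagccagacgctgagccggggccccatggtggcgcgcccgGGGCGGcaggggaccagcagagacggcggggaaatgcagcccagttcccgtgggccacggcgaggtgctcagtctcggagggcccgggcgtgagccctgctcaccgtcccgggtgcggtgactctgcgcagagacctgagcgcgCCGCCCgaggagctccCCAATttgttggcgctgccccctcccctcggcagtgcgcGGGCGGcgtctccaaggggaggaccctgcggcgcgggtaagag
Col3a1 chr1:45311288-45311587 (plus strand): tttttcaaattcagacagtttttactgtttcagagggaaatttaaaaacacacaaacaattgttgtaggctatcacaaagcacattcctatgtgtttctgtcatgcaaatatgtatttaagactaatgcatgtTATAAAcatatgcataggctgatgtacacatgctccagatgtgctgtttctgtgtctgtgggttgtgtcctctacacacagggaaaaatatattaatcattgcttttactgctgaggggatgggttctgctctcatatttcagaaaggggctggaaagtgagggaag
Col24a1 chr3:145292222-145292521 (plus strand): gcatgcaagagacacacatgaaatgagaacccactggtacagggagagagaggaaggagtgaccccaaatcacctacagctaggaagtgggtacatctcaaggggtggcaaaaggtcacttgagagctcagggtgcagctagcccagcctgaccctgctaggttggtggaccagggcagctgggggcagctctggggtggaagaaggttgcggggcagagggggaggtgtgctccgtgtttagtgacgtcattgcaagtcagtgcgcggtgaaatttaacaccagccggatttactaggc
The shared stretch is the start of the Col4a1 window on the plus strand, and holds a GGGCGG match, 9 to 14 bases after the Col4a1 start and 7 to 12 after that of Col4a2. The Col3a1 window has a TATAAA match from -117 to -112 and the Col24a1 window has no match to these motifs. RefSeq windows were found for 35 of the 44 genes, 38 windows in all. GGGCGG was in 60.5% of these against 35.7% of all 32851 windows of the same length, CCAAT in 34.2% against 37.4%, and TATAAA in 13.2% against 13.6%. The consensus site of the MEF2 factors was found in 2.63% of the collagen windows, that of Col13a1 alone, against 3.19% of all windows. A match only describes the letters in these windows.

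Col4a1 and Col4a2 encode the α1 and α2 chains that join as the ubiquitous type IV collagen. Col4a1 (chr8:11198423-11312826, 52 exons) was at 60.7 and 59.8 CPM in WT replicates 1 and 2 and at 46.4 and 47.8 CPM in Eko replicates 1 and 2. Both Eko values were below both WT values, by more than the spread within either genotype, and the mean was 78.2% of WT. The log2 fold change was -0.36 (SE 0.066, n = 2 mice per genotype), with an unadjusted p of 0.00105 and an adjusted p of 0.118 in edgeR, and an adjusted p of 0.00646 in DESeq2. Col4a2 (chr8:11312805-11449287, 48 exons) was at 57.8 and 54.2 CPM in WT and 46.2 and 44.7 CPM in Eko mice. It too did not overlap between genotypes, with a log2 fold change of -0.30 (SE 0.070) and an adjusted p of 0.197 in edgeR. The ratio of Col4a1 to Col4a2 per kb was 1.02 and 1.08 in WT and 0.980 and 1.04 in Eko mice and overlapped between genotypes, so the chains kept close to equal levels in each mouse. The genes share only 22 bases with each other. On the other strand, Col4a1 also overlaps Gm15418 and Col4a2 overlaps Gm15419, and a strand setting for counting was not stated in the sources used here.

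The other type IV chains, found in more restricted basement membranes, were far less abundant, at 0.0564 to 0.269 CPM per kb in WT mice, and none of them reached an unadjusted p under 0.05. Col4a3 was at 2.52 and 1.83 CPM in WT and 2.76 and 2.59 CPM in Eko mice, and Col4a4, which starts 71 bases from it on the other strand, at 2.57 and 2.30 CPM against 2.92 and 2.63 CPM. In both genes both Eko mice were above both WT mice, by log2 fold changes of 0.30 (SE 0.20) and 0.19 (SE 0.16) that missed an unadjusted p of 0.05. Col4a5, on the X chromosome 1308 bases from Col4a6, was at 1.36 and 2.16 CPM in WT and 2.16 and 2.38 CPM in Eko mice, which overlap. The ratio of Col4a3 to Col4a1 per kb was 0.0321 and 0.0237 in WT and 0.0460 and 0.0419 in Eko mice, with an exact two-sided permutation p of 0.333, the smallest that 2 mice against 2 can give.

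**Figure D3:**
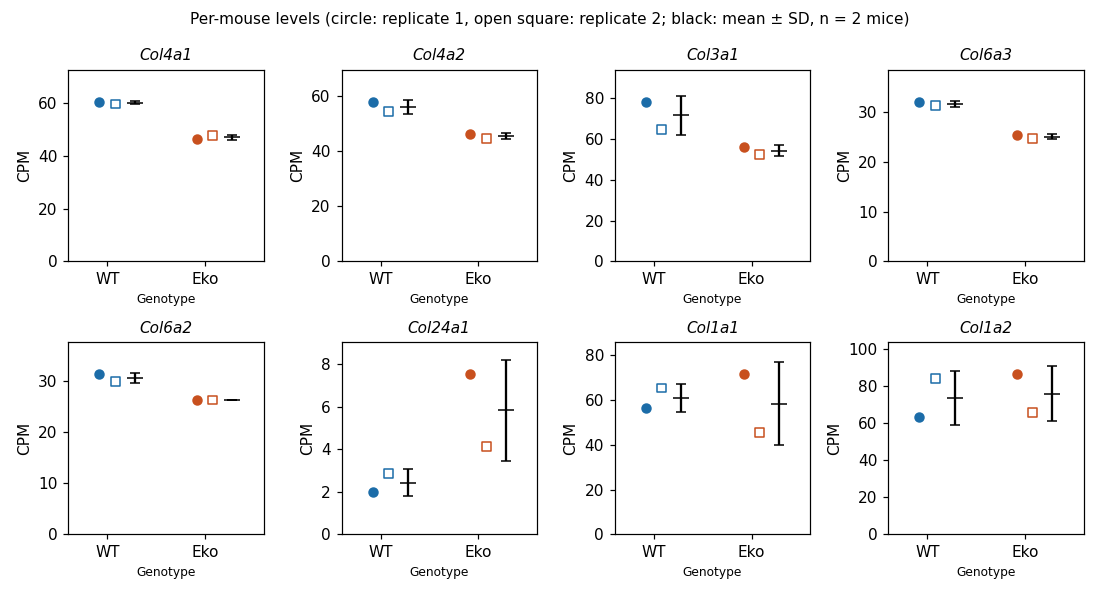
Level in CPM (y axis, from 0) of 8 abundant or low-p collagen genes in each WT and Eko mouse, with the mean and SD of each genotype in black (n = 2). The Col4a1 values of 60.7 and 59.8 CPM in WT lie clear of 46.4 and 47.8 CPM in Eko mice, while Col1a1 and Col1a2 overlap.

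Of the type VI chains, which assemble as a trimer of α1, α2 and a longer α chain, Col6a3 encodes the usual longer chain. Col6a3 (chr1:90765923-90843971, 44 exons) was at 32.1 and 31.3 CPM in WT and 25.5 and 24.8 CPM in Eko mice. These do not overlap, with a log2 fold change of -0.34 (SE 0.069), an adjusted p of 0.154 in edgeR and 0.0412 in DESeq2. Col6a2 was at 31.2 and 29.9 CPM in WT and 26.2 and 26.2 CPM in Eko mice, a log2 fold change of -0.22 (SE 0.070) and an adjusted p of 0.314 in edgeR. Col6a1, which lies next to Col6a2 on chromosome 10, was at 31.6 and 32.3 CPM in WT and 30.2 and 28.1 CPM in Eko mice. It was also lower in both Eko mice, but its log2 fold change of -0.13 (SE 0.073) missed an unadjusted p of 0.05, at 0.118 in edgeR.

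The ratio of Col6a3 to Col6a1 per kb was 0.413 and 0.393 in WT mice and 0.342 and 0.357 in Eko mice, without overlap, and the exact permutation p was again the smallest possible, 0.333. That of Col6a1 to Col6a2 overlapped, at 1.15 and 1.23 in WT and 1.31 and 1.22 in Eko mice, with an exact permutation p of 0.667. The alternative longer chains were less abundant. Col6a6 was at 5.25 and 4.43 CPM in WT and 5.26 and 5.50 CPM in Eko mice, both above both WT mice by a small margin, with a log2 fold change of 0.15 (SE 0.13). Col6a5, at 0.168 to 0.330 CPM, had the most negative fold change of the 40 genes, -0.55, with an SE of 0.52, and its values overlapped between genotypes.

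The type I chains, the bulk of tendon and fibrous sheaths, overlapped between the genotypes. Col1a1 (chr11:94936224-94953042) was at 56.6 and 65.4 CPM in WT and 71.5 and 45.3 CPM in Eko replicates 1 and 2. The highest and the lowest mouse were both Eko mice, and the log2 fold change was -0.062 (SE 0.20) with an adjusted p of 0.933 in edgeR. Col1a2 (chr6:4504814-4541544), the partner chain, was at 63.2 and 83.7 CPM in WT and 86.1 and 65.4 CPM in Eko mice, a log2 fold change of 0.045 (SE 0.17). The sum of both chains was 119.8 and 149.1 CPM in WT and 157.5 and 110.7 CPM in Eko mice. The direction of Col1a1 reversed without Eko replicate 2, to 0.23, so no direction can be given for type I.

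Col3a1 makes the homotrimeric fibrillar collagen of loose connective tissue. Col3a1 (chr1:45311538-45349706, 51 exons) was at 78.4 and 64.9 CPM in WT and 56.2 and 52.5 CPM in Eko mice. Both Eko values were below both WT values, with a mean of 75.8% of WT. The log2 fold change was -0.40 (SE 0.10) with an adjusted p of 0.226 in edgeR and 0.0334 in DESeq2. The log2 fold change of Col3a1 ranged from -0.51 to -0.26 as each mouse was left out in turn. The ratio of Col1a1 to Col3a1 per kb was 0.678 and 0.946 in WT and 1.19 and 0.810 in Eko mice and overlapped, with an exact permutation p of 0.667, so a difference of Col3a1 from type I was not shown.

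Type V chains, which join type I in the fibril and set its diameter, were lower in the Eko mice at an unadjusted p under 0.05 for 2 of 3 genes. Col5a1 was at 18.1 and 14.6 CPM in WT and 13 and 13.03 CPM in Eko mice, a log2 fold change of -0.33 (SE 0.12, adjusted p of 0.354 in edgeR). It was -0.16 without WT replicate 1, the higher WT mouse, and -0.46 without WT replicate 2. Col5a3 was at 7.58 and 7.37 CPM in WT and 6.38 and 5.44 CPM in Eko mice, a log2 fold change of -0.34 (SE 0.12, adjusted p of 0.362 in edgeR). Neither gene's values overlapped between the genotypes. Col5a1 shares bases with 2810430I11Rik and Gm13372 on the other strand, and neither of these passed the filter on low counts. Col5a2, at 12.1 and 9.63 CPM in WT and 9.83 and 8.54 CPM in Eko mice, did overlap and had a log2 fold change of -0.24 (SE 0.14). Summed over these chains, type V was at 37.8 and 31.6 CPM in WT and 29.2 and 27.0 CPM in Eko mice.

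Among the minor fibrillar chains, Col24a1 had the largest fold change of the 40 collagen genes tested. It encodes a fibrillar chain best known from developing bone and cornea, and lies at chr3:145292472-145552011 on the plus strand with 60 exons. It held 151 and 233 counts in WT replicates 1 and 2 and 649 and 297 in Eko replicates 1 and 2, or 1.99 and 2.88 CPM against 7.53 and 4.15 CPM. Both Eko mice were above both WT mice, at a mean of 239.8% of WT, but differed from each other more than the WT mice did. The log2 fold change was 1.26 (SE 0.30), with an adjusted p of 0.211 in edgeR and 0.0035 in DESeq2. The log2 fold change was 0.78 without Eko replicate 1 and 1.63 without Eko replicate 2. The gene overlaps 9530034A14Rik on the other strand, which did not pass the filter on low counts. The ratio of Col24a1 to Col1a1 per kb was 0.0292 and 0.0366 in WT and 0.0875 and 0.0761 in Eko mice, closer between the Eko mice than the Col24a1 levels themselves.

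The other genes higher at an unadjusted p under 0.05 were Col11a2 and Col9a1, both known best from cartilage. Col11a2 was at 2.15 and 2.42 CPM in WT and 3.75 and 2.70 CPM in Eko mice, a log2 fold change of 0.50 (SE 0.20, adjusted p of 0.418 in edgeR). It was 0.25 without Eko replicate 1 and 0.71 without Eko replicate 2. Col9a1, a fibril-associated chain, was at 0.488 and 0.309 CPM in WT and 0.661 and 0.811 CPM in Eko mice, a log2 fold change of 0.88 (SE 0.36, adjusted p of 0.422 in edgeR). Col2a1, the defining collagen of cartilage, was at 0.0559 to 0.278 CPM with overlap. The skin and cartilage markers overlapped between genotypes, with a summed level of 2.78 and 4.64 CPM in WT and 3.31 and 3.33 CPM in Eko mice, and 4 of the 6 did not pass the filter on low counts. The minor fibrillar chains Col11a1 and Col27a1 overlapped between genotypes.

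Collagens of the remaining classes mostly overlapped. Among the multiplexins, basement membrane collagens with heparan or chondroitin sulfate chains, Col15a1 was at 13.03 and 12.7 CPM in WT and 11.1 and 11.9 CPM in Eko mice, a log2 fold change of -0.16 (SE 0.088). Col18a1, whose C-terminal fragment is endostatin, was at 6.30 and 6.37 CPM in WT and 5.10 and 5.50 CPM in Eko mice, a log2 fold change of -0.26 (SE 0.11) at an unadjusted edgeR p of 0.0554. Both genes were lower in both Eko mice. The FACITs, which sit on fibrils, were at 27.5 and 29.4 CPM summed in WT and 32.5 and 24.9 CPM in Eko mice. Col22a1, the collagen of the myotendinous junction, was the most abundant of them per kb, at 10.1 and 14.3 CPM in WT and 14.3 and 9.48 CPM in Eko mice.

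Col22a1 thus had its mice in an order like that of Col1a1, with Eko replicate 2 lowest. Col7a1, the anchoring fibril collagen, had the same lowest mouse, at 7.20 and 8.0 CPM in WT and 8.90 and 5.08 CPM in Eko mice. Col8a1, a short chain network collagen of vessel walls, was at 3.76 and 3.17 CPM in WT and 4.26 and 2.98 CPM in Eko mice. Of the transmembrane collagens, Col23a1 was highest per kb, at 1.05 and 0.816 CPM in WT and 1.22 and 1.29 CPM in Eko mice, without overlap and with a log2 fold change of 0.42 (SE 0.25). Col26a1 was at 0.343 and 0.322 CPM in WT and 0.244 and 0.308 CPM in Eko mice, a difference of few counts. None of these 5 genes reached an unadjusted p under 0.05.

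**Figure D4:**
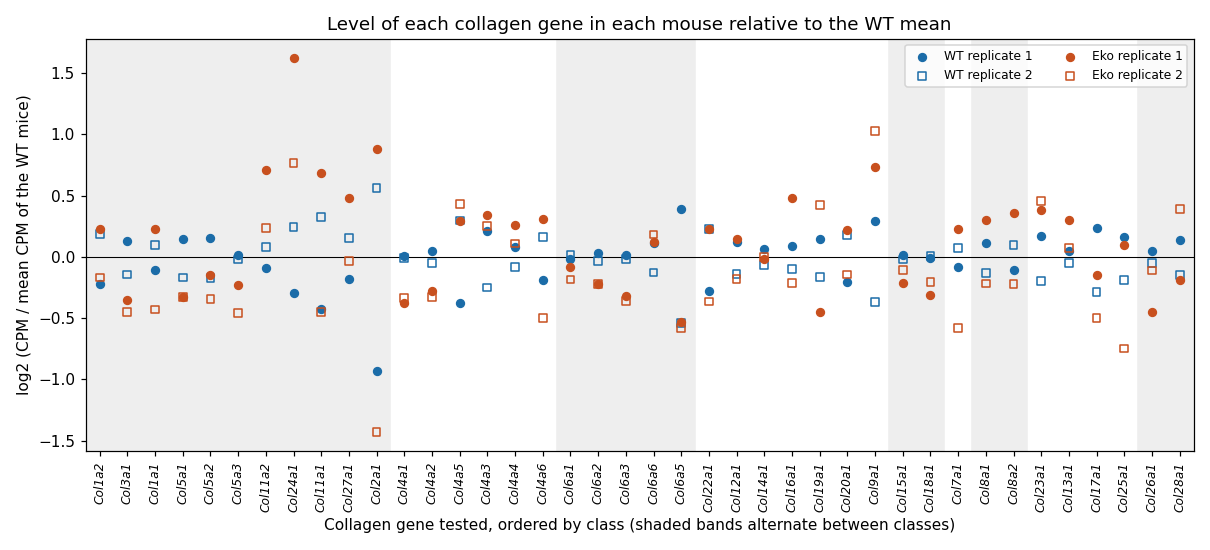
Level of each of the 40 tested collagen genes in each mouse, as log2 of its CPM over the mean CPM of the WT mice (y axis), by gene and class (x axis). Eko replicate 2 is the lowest of the 4 mice in 20 genes and Eko replicate 1 the highest in 17, counts that were not taken over all genes tested.

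The Eko mice differed from each other across the collagen genes. Replicate 1 was the highest of the 4 mice in 17 of the 40 genes and replicate 2 the lowest in 20. WT replicate 1 was the highest in 14. Such counts were not taken over all genes tested, so whether they are particular to collagen genes cannot be told from them. The median log2 ratio of replicate 2 to replicate 1 was -0.18 over the collagen genes, beside -0.0018 over all genes tested, and between the WT mice it was -0.078 beside -0.0054. The median log2 fold change of the collagen genes was -0.19 without Eko replicate 1 and 0.22 without replicate 2. Without WT replicates 1 and 2 in turn, the collagen median was -0.058 and -0.023. Over all genes tested, the median in these 4 fits ran from -0.0084 to 0.0087.

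Summed over all 44 genes, collagen RNA was at 530.5 and 537.0 CPM in WT and 513.9 and 439.4 CPM in Eko mice, lower in both Eko mice by a log2 difference of -0.17. Without type I and III the sum was 332.3 and 323.0 CPM in WT and 300.2 and 276.2 CPM in Eko mice, a difference of -0.19. Both gave the smallest exact two-sided permutation p the design allows, 0.333. With the GC correction the difference of the whole sum was -0.108 and the genotypes overlapped, with an exact permutation p of 0.667. It was -0.0546 without Eko replicate 2 and -0.267 without Eko replicate 1. Col4a1 and Col4a2 together were at 118.5 and 114.0 CPM in WT and 92.6 and 92.4 CPM in Eko mice, and the 3 main type VI chains at 94.9 and 93.5 CPM against 81.9 and 79.1 CPM.

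**Figure D5:**
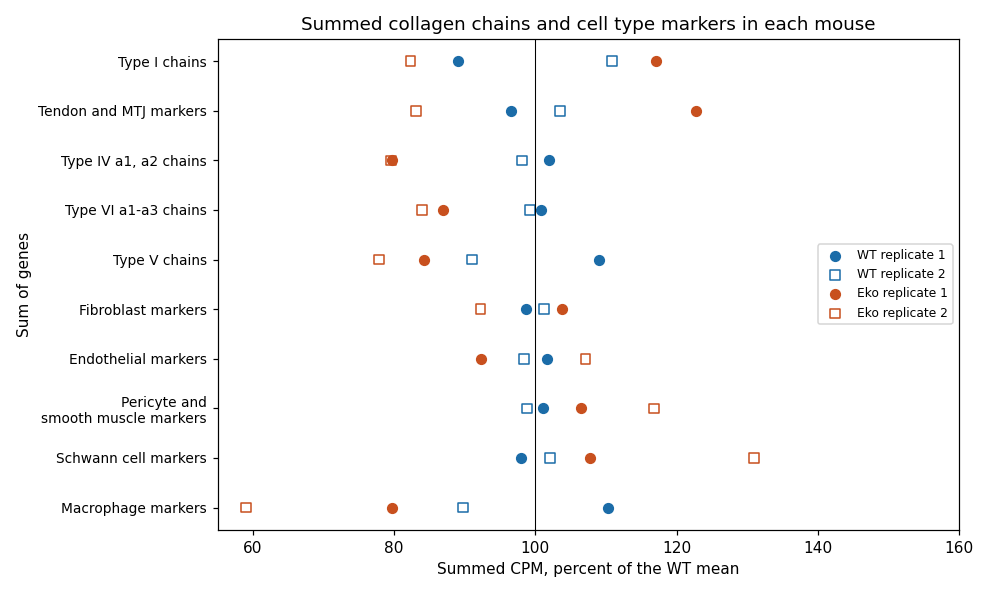
Summed CPM of collagen chains and of cell type marker lists in each mouse (x axis), as a percentage of the WT mean. Tendon markers are without Col22a1 and fibroblast markers without Col15a1; type IV, V and VI chains are lower in both Eko mice, whereas type I chains and tendon markers are highest in Eko replicate 1 and lowest in replicate 2.

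Markers of the cells that make or hold collagen were set beside these values, and their part in the collagen values was not tested. The tendon and myotendinous junction list, without Col22a1, was at 183.1 and 196.3 CPM in WT and 232.8 and 157.6 CPM in Eko mice, the order of the mice in the type I sum. Within it, Fmod, a small proteoglycan of tendon and the most abundant of the list in CPM, was at 97.1 and 121.0 CPM in WT and 150.8 and 94.96 CPM in Eko mice. Thbs4, a thrombospondin of tendon, had another order, with 69.6 and 55.4 CPM in WT and 57.9 and 45.4 CPM in Eko mice. The fibroblast list overlapped in its sum, 635.0 and 650.5 CPM in WT against 665.0 and 593.0 CPM in Eko mice. Without Col15a1, 7 of its 11 genes were lower in both Eko mice and 1 was higher, against 23% and 20.8% of all genes. Smoc2, the higher gene, was at 48.2 and 49.6 CPM in WT and 53.6 and 57.8 CPM in Eko mice, and Dcn, decorin, overlapped at 153.2 and 170.1 CPM against 201.9 and 153.7 CPM. Among the lower ones was Pdgfra, the receptor that marks fibro-adipogenic progenitors, at 12.97 and 13.8 CPM against 11.2 and 11.1 CPM. The Pdgfra log2 fold change was -0.26 (SE 0.086), with an unadjusted p of 0.0189 and an adjusted p of 0.327 in edgeR.

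The other marker lists are given in the same way, with their part in the collagen values again not tested. Endothelial markers were at 240.1 and 232.5 CPM in WT and 218.1 and 253.1 CPM in Eko mice, which overlap. Pericyte and smooth muscle markers were at 553.9 and 541.3 CPM against 583.0 and 639.8 CPM, and 5 of the 8 were higher in both Eko mice, where 20.8% of all genes were. Schwann cell markers were at 45.3 and 47.2 CPM against 49.8 and 60.6 CPM, and 5 of 7 were higher in both Eko mice. Macrophage markers were at 46.3 and 37.7 CPM against 33.5 and 24.8 CPM, 6 of 8 of them lower in both Eko mice, where 23% of all genes were. Adipocyte markers were at 81.6 and 31.5 CPM against 26.5 and 11.5 CPM, but only 2 of the 6 were lower in both Eko mice. Muscle fiber markers were at 129052 and 132146 CPM against 128673 and 133507 CPM, as a muscle label requires. Of these 10 genes, 4 had a log2 fold change below 0 and 6 above. Among the fast myosins, Myh1 and Myh2 had log2 fold changes of -0.44 and -0.51 at adjusted edgeR p-values of 0.261 and 0.161. Myh4, the most abundant of the list in CPM, had 0.069 at an adjusted edgeR p of 0.825 and was higher in both Eko mice.

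The genes that modify, export, process, bind and degrade collagen were taken as 8 lists of 121 genes, 115 of which were tested. None passed an adjusted p of 0.05 in edgeR, 11 were lower and 6 higher at an unadjusted p under 0.05, 9.57% and 5.22% against 6.41% and 5.15% of all genes. DESeq2 called 2, Ecm1 and Lamb2, 1.74% against 1.97% of all genes. The median log2 fold change of the 115 genes was -0.024. Among the 14 tested hydroxylation and glycosylation enzymes, 1 was lower at an unadjusted p under 0.05. This was P4ha2, a catalytic subunit of prolyl 4-hydroxylase that stabilizes the helix, at 18.6 and 20.7 CPM in WT and 15.5 and 16.2 CPM in Eko mice, a log2 fold change of -0.31 (SE 0.086). The next smallest p-values in this list, which missed that level, belonged to Plod1 (-0.18) and P4ha1 (-0.25).

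Of the 10 folding and export genes, 1 was lower and 2 were higher at an unadjusted p under 0.05. Serpinh1, the collagen chaperone HSP47, was at 39.5 and 52.8 CPM in WT and 28.3 and 36.1 CPM in Eko mice, below both WT mice in both, with a log2 fold change of -0.52 (SE 0.16, adjusted p of 0.302 in edgeR), or -0.28 without WT replicate 2 and -0.34 without Eko replicate 1. Sec23a, a coat protein of the vesicles that carry procollagen, was at 93.8 and 95.9 CPM in WT and 110.1 and 116.2 CPM in Eko mice, a log2 fold change of 0.25 (SE 0.066), and Tmem38b had 0.18. In propeptide removal and cross-linking, 1 of 12 tested genes was lower, Pcolce, which enhances procollagen C-proteinase, at 14.7 and 14.4 CPM against 12.7 and 12.2 CPM. Loxl3 (-0.40) and Adamts3 (0.62) followed by p without reaching that level.

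No collagen receptor and no gene of collagen degradation reached an unadjusted p under 0.05, of 11 and 12 tested. The smallest p-values were those of Itgb1, the shared β1 integrin chain, with a log2 fold change of -0.16, Itga2 (1.09, at under 0.35 CPM) and Itga1 (0.26) among receptors, and of Timp1 (-0.72), Mmp9 (-0.29) and Mmp2 (-0.072) among the others. Of 24 proteoglycans and glycoproteins bound to fibrils, 3 were lower and 1 was higher at that level. Ecm1, a secreted matrix glycoprotein, was at 11.2 and 9.88 CPM in WT and 7.24 and 7.24 CPM in Eko mice, a log2 fold change of -0.54 (SE 0.10, adjusted p of 0.13 in edgeR). Dpt, dermatopontin, had a log2 fold change of -0.31 and Ecm2 of 0.30.

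The laminins and their partners, which form the basement membrane together with type IV collagen, went both ways. Of 13 tested, 2 were lower and 1 was higher at an unadjusted p under 0.05. Lamb2, the laminin β2 chain found at the neuromuscular junction and around the fiber, was at 82.6 and 76.4 CPM in WT and 108.0 and 100.3 CPM in Eko mice, a log2 fold change of 0.39 (SE 0.076, adjusted p of 0.13 in edgeR). Lamc1, the γ1 chain of most laminins, was at 80.1 and 80.6 CPM against 67.8 and 69.3 CPM, a log2 fold change of -0.23 (SE 0.064). Hspg2, perlecan, was at 137.2 and 134.0 CPM against 120.4 and 112.2 CPM, a log2 fold change of -0.22 (SE 0.069). Of the 19 tested TGF-β genes, 3 were lower and 2 higher, the smallest p-values being those of Smad3, a mediator of the signal, at 120.8 and 106.4 CPM against 81.2 and 96.3 CPM, then Mstn (-0.31) and Tgfb2 (0.22).

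Collagen transcripts were longer and richer in G and C than others, with medians of 6084 bases and 55.4% against 2953 bases and 49.9% over all genes tested. Across genes, which are not independent replicates, the log2 fold change had a rank correlation of -0.22 with GC content and 0.19 with length. When each library was corrected for its trend with GC content, Col4a1 had a log2 fold change of -0.28 and Col4a2 of -0.21. Col6a2, Col5a1 and Col5a3 then had unadjusted p-values of 0.0584, 0.056 and 0.0776 in edgeR. The collagen genes lower at an unadjusted p under 0.05 numbered 4, beside 895 of all 16120 genes tested. With the correction for length instead, Col4a1 had a log2 fold change of -0.41 and Col4a2 of -0.36. The lower collagen genes then numbered 8, beside 945 over all genes, and the summed collagen level differed by -0.22. Of the other genes given per mouse, Col4a3, Col4a5, Col5a3, Col6a6, Col15a1, Col18a1 and Col22a1 also overlap an annotated gene on the other strand, with which reads could have been shared if strand was not used in counting.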

How the data were processed

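PolyA RNA of the quadriceps of 2 WT and 2 Mef2dα2 Eko mice was sequenced with a stranded kit, and genotypes come from the sample labels. The authors aligned the reads to mm10, with STAR 2.6.1a per the submitters' processing notes, and deposited the expected counts that RSEM estimated per gene, with no normalization. None of the deposited expected counts had a fraction, so no rounding was needed. Total expected counts were 76748043 and 79771613 for WT replicates 1 and 2, and 85176059 and 72626757 for Mef2dα2 Eko replicates 1 and 2, so 3 counts, the smallest level read here, were 0.0348 to 0.042 CPM, which covers counting error only.

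Genotypes were compared in R 4.3.3 by edgeR 4.0.16's quasi-likelihood test on the whole table, with TMM normalization, its default filter, a prior count of 0.125, no covariate, and Benjamini-Hochberg adjustment. On simulated data of 16120 genes for this comparison, fitted without the filter, it called 187 of 200 changed and 30 unchanged genes. The changes put in were log2 fold changes of 1 or 2 in either direction, in genes above 1 CPM. Most collagen differences here were smaller, so these counts do not tell how often such differences would be called. Sums and ratios were compared with an exact two-sided permutation test over mice. Alternatives were DESeq2 1.42.0, with and without edgeR's filter, limma-voom (limma 3.58.1), edgeR's likelihood ratio test, RLE and upper-quartile scaling, no filter, at least 1 CPM in 2 libraries, GC and length corrections, a replicate block and leaving out each mouse.

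Positions, exons, GC content and lengths, those of the longest coding transcript, came from GENCODE M21 on GRCm38, and overlaps with genes of the other strand were noted since no strand setting for counting was stated in the sources used here. Values are given per mouse for collagen genes with an unadjusted p under 0.05, for chains of types I, III, IV, V, VI and XV with a mean of at least 1 CPM and for the most abundant gene of each class per kb. From each pathway list the 3 genes of smallest p are named, some with a log2 fold change only. Values of Col18a1, Col6a5, Col2a1 and of the markers Fmod, Thbs4, Comp, Pdgfra, Smoc2, Dcn, Myh1, Myh2 and Myh4, outside this rule, were chosen after they were seen. The members and lists were chosen with earlier results of these data known. Exon-level reads were not analysed here.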

Additional observations from a re-analysis of the deposited data

How the results depend on the processing

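With 2 mice per genotype the design is small, and low counts left standard errors of 0.39 to 0.83 on the log2 scale for Col26a1, Col28a1, Col4a6, Col17a1, Col25a1 and Col2a1. None of the 10 collagen genes with an unadjusted p under 0.05 changed direction under the alternatives run, 16 for 9 of them and 15 for Col9a1, which was not tested at 1 CPM or more in 2 libraries. Of 988 values of single genes under the alternatives, 914 kept their direction and side of the threshold, 34 passed it and 40 changed sign.

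The collagen genes past an adjusted p of 0.05, none in edgeR's quasi-likelihood test, numbered 4 lower and 1 higher with no filter on low counts, 3 lower and 1 higher with DESeq2, 2 lower and 1 higher with DESeq2 on all genes that had a count, and 2 lower and 1 higher with edgeR's likelihood ratio test, and from 0 to 1 lower and from 0 to 1 higher as each mouse was left out. Pathway genes past it, again 0, numbered 5 with no filter, 2 with DESeq2, 3 with DESeq2 on all genes, 2 with the likelihood ratio test and 0 to 1 as each mouse was left out. Over all genes, 67 passed in edgeR's quasi-likelihood test, 799 with no filter, 23 at 1 CPM or more in 2 libraries, 318 and 284 with DESeq2 with and without the filter, 312 with the likelihood ratio test, and 99 to 299 as each mouse was left out. The 7 lower collagen genes with an unadjusted p under 0.05 were 4 with the GC correction and 4 to 8 as each mouse was left out, and the 3 higher ones were 1 at 1 CPM or more in 2 libraries, where fewer genes are tested, 1 with DESeq2 and 1 with DESeq2 on all genes. The median log2 fold change ran from -0.19 to 0.22 as each mouse was left out. Leaving out a mouse leaves its genotype with 1, which is assumed to vary like the other genotype. The causes were not tested.

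The mice are called littermates, but nothing says that a replicate number marks a shared litter, and the deviations of same-numbered mice had a correlation of 0.162. With a replicate block, 0 collagen genes and 2 pathway genes passed, Serpinh1 at an adjusted edgeR p of 0.0213 and Lamb2 at 0.0479, also with the GC correction added, at 0.0341 and 0.0214, and 186 and 175 genes passed over the whole table. The summed level was -0.17 and -0.11 in these fits.

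Signs changed for Col12a1, at -0.00383, to 0.00359 with RLE scaling, 0.00315 with DESeq2, 0.00522 with DESeq2 on all genes and 0.00391 with limma-voom. Col14a1, at -0.00691, had 0.000897 with RLE scaling, 0.000904 with DESeq2 and 0.00311 with DESeq2 on all genes. With limma-voom, Col19a1 had -0.0376 in place of 0.0421 and Col2a1 -0.0121 in place of 0.175. With the GC correction, Col1a1 had 0.0155 in place of -0.0624 and Col4a6 0.00392 in place of -0.0298. As each mouse was left out, the log2 fold change ran from -0.435 to 0.678 for Col11a1, -0.163 to 0.148 for Col12a1, -0.0556 to 0.0593 for Col14a1, -0.197 to 0.483 for Col16a1, -0.45 to 0.437 for Col19a1, -0.415 to 0.228 for Col1a1 and -0.153 to 0.277 for Col1a2. It ran from -0.131 to 0.267 for Col20a1, -0.35 to 0.255 for Col22a1, -0.72 to 0.0994 for Col25a1, -0.018 to 0.482 for Col27a1, -0.189 to 0.405 for Col28a1 and -1.4 to 1.11 for Col2a1. It ran from -0.482 to 0.305 for Col4a6, -0.568 to 0.227 for Col7a1, -0.202 to 0.299 for Col8a1, -0.21 to 0.357 for Col8a2 and -0.106 to 0.57 for Itga1.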

Other observations

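Satellite cell markers, the stem cells of muscle, were at 24.5 and 22.9 CPM in WT replicates 1 and 2 and 25.3 and 26.2 CPM in Mef2dα2 Eko replicates 1 and 2, and none of the 5 reached an unadjusted p under 0.05 in edgeR. Neuromuscular junction markers were at 104.5 and 92.95 CPM in WT and 89.1 and 112.2 CPM in Mef2dα2 Eko mice and overlapped. The tendon marker Comp, cartilage oligomeric matrix protein, was at 4.47 and 6.10 CPM in WT and 8.48 and 3.94 CPM in Mef2dα2 Eko mice, the same order of mice as for Fmod and Col1a1 plus Col1a2.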
